A study of Mus musculus with 12 samples.

Results

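Voltage-gated and potassium channel genes were taken from the hypothalamus RNA-Seq tables as the protein-coding genes whose symbols mark them as potassium channel (Kcn), voltage-gated sodium channel (Scn), voltage-gated calcium channel (Cacna) or HCN channel (Hcn) subunits, without Kcne2, Kcnj13, Kcnk9, Scn7a and Kcnq1ot1. They numbered 100 of the 17161 genes listed on at least 1 diet: 10 sodium, 12 calcium, 4 HCN and 74 potassium channel genes, all listed on both diets. The tissue was the hypothalamus of male C57BL/6J mice aged 8 weeks, with 3 mice in each of 4 groups: WT mice on chow, Gpr75-/- mice on chow, WT mice on a high-fat diet (HFD) for 2 weeks from 6 weeks of age, and Gpr75-/- mice on the same HFD. The knockout was germline, made by CRISPR/Cas9 as an early stop in the coding sequence, so every cell of these mice carried it and the Gpr75 mRNA can still be made. The Gpr75 group value was 16.7 CPM (the gene's count scaled to a common library total) in WT and 24.6 in Gpr75-/- mice on chow, and 19.9 and 18.4 on the HFD. This level therefore did not check the genotype labels.

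Voltage-gated channels open or close when the potential across the neuronal membrane moves. Sodium channels carry the upstroke of the action potential, calcium channels couple it to transmitter release and gene expression, potassium channels end it and set the resting potential, and HCN channels pass a depolarizing current after hyperpolarization. In hypothalamic neurons that control feeding, these channels set firing rate, and the ATP-sensitive potassium channel ties it to glucose.

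Each genotype on each diet had 1 value per gene, and the values of single mice were not used here. That group value was read back from the deposited tables as CPM, and a fold is the Gpr75-/- value over the WT value. The deposited values carry 2 decimals, so many folds are followed by the range that this rounding allows. Folds printed without a range carry the same limit, and for some of them the range reaches 1.0. The range covers rounding alone. The group values carry no spread between the 3 mice and the authors' own errors and p-values were not used, so no difference below has a replicate check or a p-value. A gene was counted as past the fold when its groups differed by at least 1.2-fold, and the same count over all protein-coding genes with a mean of at least 30 normalized counts is the background. The depth of an average mouse was 18280462 normalized counts on chow and 19420111 on the HFD. All 100 channel genes reached a mean of 30 normalized counts on both diets, and 84 on chow and 85 on the HFD reached 100. In bulk tissue, fewer cells of a type and less RNA per cell cannot be told apart.

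Levels were compared between genes per kb of the longest annotated transcript, as the mean normalized count over the 6 mice of a diet. Sodium channel genes had the highest median of the 4 classes on chow, 295 normalized counts per kb, against 120 for HCN, 107 for calcium and 95.6 for potassium channel genes. The beta subunits Scn2b and Scn3b, which attach to the sodium channel pore, were at 581 and 578 counts per kb, above the alpha subunits Scn2a at 437 and Scn1a at 352. Among calcium channel genes, the 3 highest were alpha2delta subunits, which carry the pore to the cell surface: Cacna2d3 at 427, Cacna2d1 at 330 and Cacna2d2 at 293 counts per kb. Hcn2 led its class at 762, above Hcn3 at 151 and Hcn4 at 34.8. The highest potassium channel genes were Kcnip4, a calcium-binding partner of Kv4 channels, at 821, the Kv1 beta subunit Kcnab2 at 743 and the two-pore channel Kcnk1 at 640. Kcnip4 overlaps several other listed genes, and whether the reads were counted by strand is not given in the sources used here. The lowest was Kcns1, a subunit that forms no channel by itself, at 12.7 counts per kb. The classes kept this order on the HFD, at 265, 127, 102 and 97.9 counts per kb. Among genes with a mean of at least 100, the potassium median was 147 on chow and 142 on the HFD, above the HCN and calcium medians and below sodium.

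**Figure D1:**
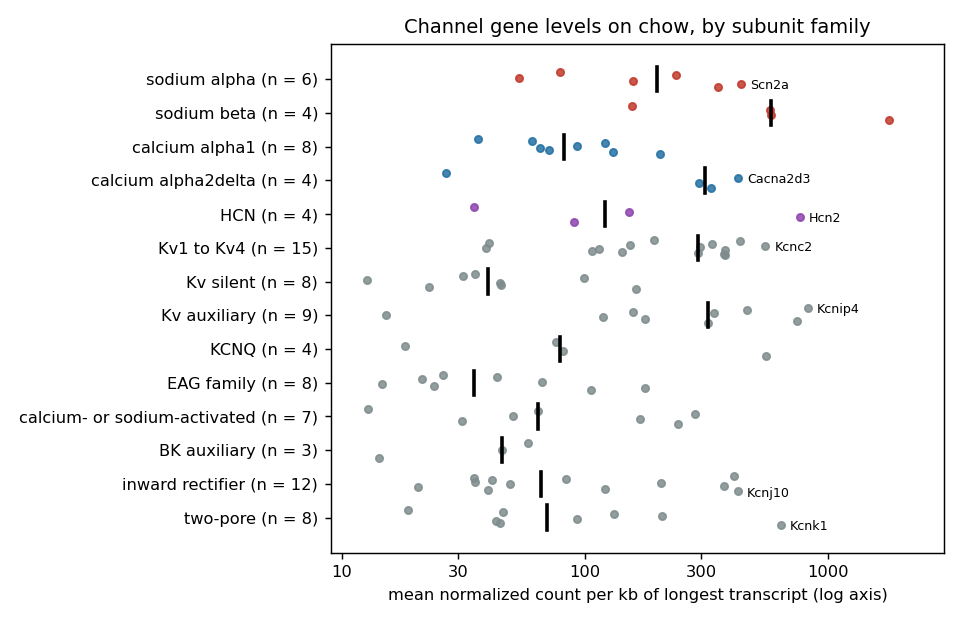
Mean normalized count per kb of the longest transcript on chow (horizontal log axis) for the 100 channel genes, 1 point a gene, grouped by subunit family, with black bars at the family medians. The points of Scn2a, Cacna2d3, Hcn2, Kcnc2, Kcnip4, Kcnj10 and Kcnk1 are named, and the silent Kv and EAG families sit low, with medians of 39.9 and 34.8.

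On chow, channel genes leaned toward lower values in Gpr75-/- mice, and the sodium channel genes were the farthest below WT. Of the 100 genes, 13 were lower past 1.2-fold and 0 were higher, against 6.58% of the 13379 background genes past the fold in either direction, 3.35% lower and 3.23% higher. The rounding range lay wholly past the fold for 9 of the 13. The median difference was -0.05 on the log2 scale over the channel genes and 0.00 over the background genes, with 62 channel genes below WT, 28 above and 10 equal. Of the background genes, 5376 were below WT, 5762 above and 2241 equal. Beyond 1 rounding step, 46 channel genes were lower and 18 higher, beside 3610 and 3728 background genes. By class, the median difference was -0.15 for sodium, -0.10 for calcium, -0.07 for HCN and -0.04 for potassium channel genes. By the mean, calcium was at -0.05, nearest 0 of the classes, with sodium at -0.19, HCN at -0.07 and potassium at -0.06. Genes past the fold made up 4 of the 10 sodium channel genes and 9 of the 74 potassium channel genes, with 0 of the 12 calcium and 0 of the 4 HCN channel genes. Among genes with a mean of at least 100, 8 of 84 channel genes and 229 of 11628 background genes were lower past the fold.

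On the HFD this lean was not seen in the medians. The median difference was 0.00 over the 100 channel genes and over the background, with 41 channel genes below WT, 38 above and 21 equal. Of the background genes, 4724 were below WT, 6062 above and 2644 equal, so the channel genes still lay lower than the background by these counts. Beyond 1 rounding step, 32 channel genes were lower and 25 higher, beside 2975 and 3824 background genes. Past 1.2-fold, 7 channel genes were lower and 2 were higher, against 5.55% of the 13430 background genes in either direction, 2.82% lower and 2.73% higher. The class medians were 0.00 for sodium, calcium and potassium channel genes and 0.09 for HCN channel genes. No sodium or HCN channel gene was past the fold, 1 calcium channel gene was lower, and 6 potassium channel genes were lower with 2 higher. Among genes with a mean of at least 100, 3 of 85 channel genes and 166 of 11688 background genes were lower past the fold. The Gpr75-/- minus WT difference on the HFD lay above that on chow for 64 of the 100 genes, below it for 33 and level with it for 3, beside 50.8% above and 43.3% below among background genes. Whether the genotype difference itself changed with diet was not tested.

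**Figure D2:**
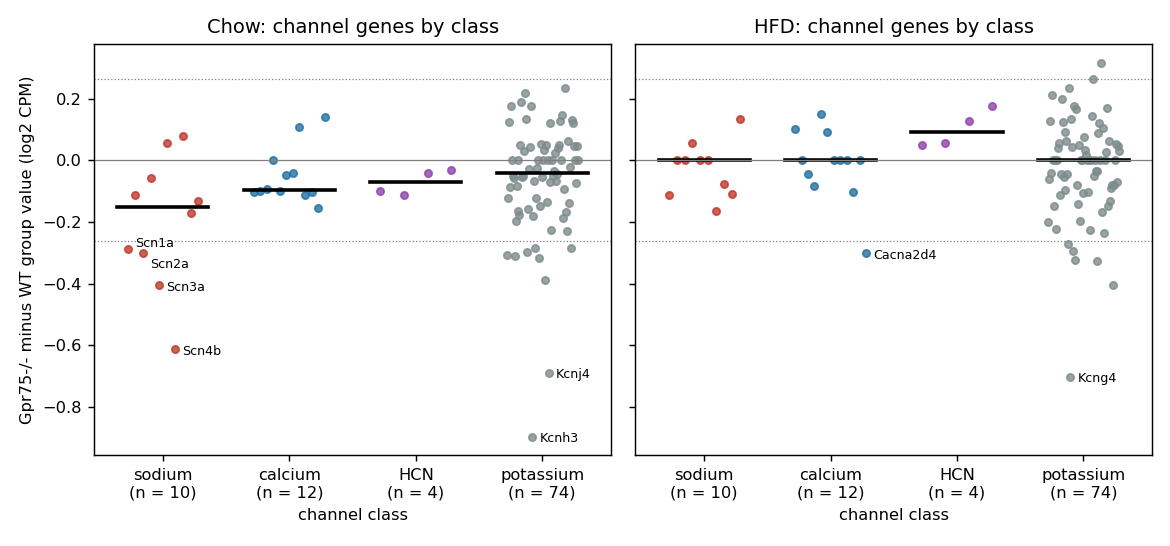
Gpr75-/- minus WT difference of the group values (log2 CPM, vertical axis) for the 100 channel genes by class on chow and on the HFD, 1 point a gene, with black bars at the class medians and dotted lines at 1.2-fold either way. The sodium median sits at -0.15 on chow and 0.00 on the HFD, and Scn4b, Scn3a, Scn2a and Scn1a lie below the lower line on chow only.

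The voltage-gated sodium channel is a pore-forming alpha subunit with beta subunits. Of the 6 alpha subunits, 5 were below WT on chow. Scn2a, the alpha subunit of the axon initial segment of excitatory neurons, had a group value of 235 CPM in WT and 191 in Gpr75-/- mice, a fold of 0.811 (0.778 to 0.846). Scn1a, the alpha subunit on which fast-spiking inhibitory neurons rely, was at 176 CPM in WT and 144 in Gpr75-/- mice, a fold of 0.819 (0.787 to 0.852). Scn3a, which is best known from the developing brain, had 91.5 CPM in WT and 69.1 in Gpr75-/- mice, a fold of 0.755 (0.729 to 0.782). These 3 genes were the alpha subunits past the fold. Scn8a, the main alpha subunit of nodes of Ranvier in the adult, was at 156 and 138 CPM, a fold of 0.889 (0.854 to 0.924). Scn9a was at 43.8 and 40.0 CPM, a fold of 0.912 (0.884 to 0.940).

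On the HFD the same alpha subunits were close to WT. Scn2a was at 169 CPM and Scn3a at 62.4 CPM in both genotypes, with rounding ranges of 0.960 to 1.04 and 0.967 to 1.03 around equal values. Scn1a was at 138 CPM in WT and 128 in Gpr75-/- mice, a fold of 0.926 (0.890 to 0.962). Scn8a was at 133 and 123 CPM, also a fold of 0.926. Scn9a was higher in Gpr75-/- mice, at 45.2 against 41.2 CPM. The summed CPM of the 6 alpha subunits was 725 in WT and 607 in Gpr75-/- mice on chow, a ratio of 0.837, and 570 and 552 on the HFD, a ratio of 0.969.

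Among the 4 beta subunits, Scn4b stood apart. Scn4b, which supports resurgent current and repetitive firing, had 49.7 CPM in WT and 32.5 in Gpr75-/- mice on chow, a fold of 0.654 (0.634 to 0.674). It was the lowest fold among the channel genes with a mean of at least 100 normalized counts on chow. On the HFD it was at 33.4 and 29.8 CPM, a fold of 0.891 (0.866 to 0.917). The other beta subunits stayed within 1.2-fold on both diets. Scn2b was at 150 and 144 CPM on chow and at 138 and 144 on the HFD. Scn3b was at 128 and 133 CPM on chow and at 133 in both genotypes on the HFD.

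**Figure D3:**
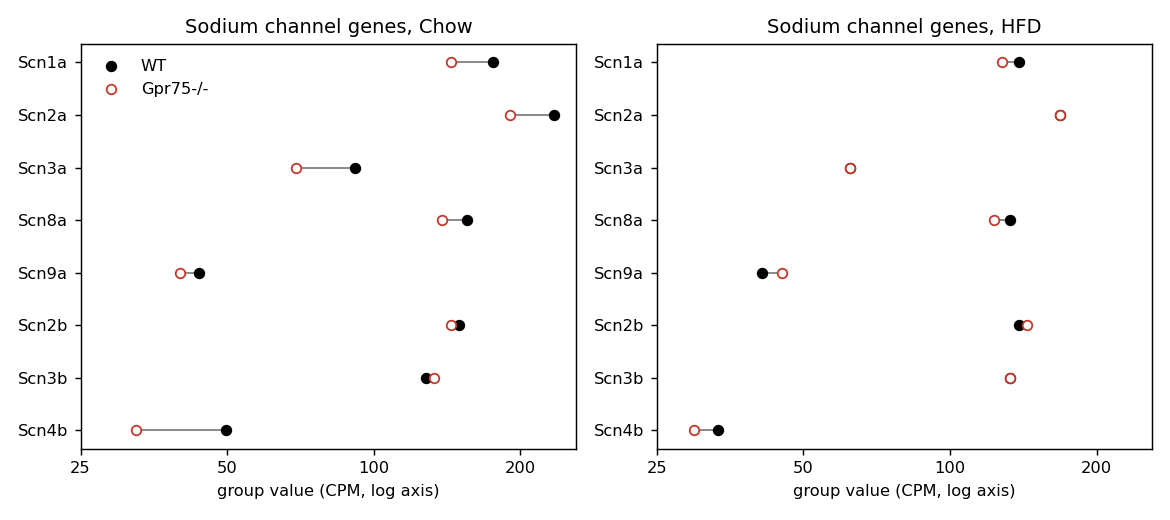
Group values in CPM (horizontal log axis) of 8 sodium channel genes in WT (filled circles) and Gpr75-/- mice (open circles) on chow and on the HFD, 1 value a genotype and diet with no error bar. The open circles lie to the left for 7 of the 8 genes on chow, farthest for Scn4b and Scn3a, and near the filled circles on the HFD.

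Sodium channel genes lie in clusters. On GRCm39, Scn3a (chr2:65287462-65397971) and Scn2a (chr2:65451115-65597791) are 53.1 kb apart, and Scn1a (chr2:66101122-66271184) and Scn9a (chr2:66310424-66465306) are 39.2 kb apart on the same chromosome. The fold on chow was 0.755 for Scn3a, 0.811 for Scn2a, 0.819 for Scn1a and 0.912 for Scn9a, so the genes past the fold included 3 of these 4. Scn7a, also on chromosome 2 but left out by the rule, had a fold of 0.903 on chow. Scn2b (chr9:45029080-45041368) and Scn4b (chr9:45049693-45065450) are 8.33 kb apart, and their folds on chow were 0.961 and 0.654. Scn1a and Scn9a each overlap another listed gene, and reads of overlapping genes cannot be told apart without strand.

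The promoter windows of Scn1a, of the neighbours Scn2b and Scn4b, and of Kcnip2, a potassium channel partner past the fold on chow like Scn1a and Scn4b, are shown so that genes that shared a direction or a locus can be compared. Each is the RefSeq window of 300 bases around the annotated start in GRCm38.p6, read 5′ to 3′ on the gene's strand, with CG dinucleotides in capitals. Scn1a is at chr2:66440788-66441087 on the minus strand, Scn2b at chr9:45117626-45117925 on the plus strand, Scn4b at chr9:45138374-45138673 on the plus strand and Kcnip2 at chr19:45816014-45816313 on the minus strand.
Scn1a: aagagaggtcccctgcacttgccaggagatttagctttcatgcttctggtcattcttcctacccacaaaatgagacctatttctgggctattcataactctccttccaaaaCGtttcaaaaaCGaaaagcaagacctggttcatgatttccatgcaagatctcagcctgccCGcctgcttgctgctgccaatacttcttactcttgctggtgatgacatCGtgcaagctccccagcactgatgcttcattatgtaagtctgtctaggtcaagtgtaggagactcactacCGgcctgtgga
Scn2b: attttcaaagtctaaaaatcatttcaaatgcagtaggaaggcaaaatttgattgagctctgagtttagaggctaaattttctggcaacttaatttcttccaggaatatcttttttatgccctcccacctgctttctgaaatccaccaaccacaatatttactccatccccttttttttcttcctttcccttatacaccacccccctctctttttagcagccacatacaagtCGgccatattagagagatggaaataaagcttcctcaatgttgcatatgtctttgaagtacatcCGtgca
Scn4b: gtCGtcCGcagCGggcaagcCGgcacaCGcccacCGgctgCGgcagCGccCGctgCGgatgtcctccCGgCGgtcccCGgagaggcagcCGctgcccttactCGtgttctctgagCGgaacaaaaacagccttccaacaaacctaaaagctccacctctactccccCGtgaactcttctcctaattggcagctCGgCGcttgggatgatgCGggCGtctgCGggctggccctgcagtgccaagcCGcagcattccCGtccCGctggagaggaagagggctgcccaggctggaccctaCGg
Kcnip2: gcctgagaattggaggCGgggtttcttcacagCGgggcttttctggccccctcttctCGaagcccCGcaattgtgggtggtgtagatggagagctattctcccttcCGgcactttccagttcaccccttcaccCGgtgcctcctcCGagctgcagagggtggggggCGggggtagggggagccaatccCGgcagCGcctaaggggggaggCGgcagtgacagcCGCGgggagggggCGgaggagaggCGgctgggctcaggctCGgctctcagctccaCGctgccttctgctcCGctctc
The windows hold 5 CG dinucleotides in Scn1a, 2 in Scn2b, 26 in Scn4b and 18 in Kcnip2. Thus Scn4b and Scn2b, side by side on chromosome 9, have windows of 66.3% and 38.3% G and C. Of the 100 channel genes, 69 had at least 1 window, 97 windows in all, with a median of 11 CG dinucleotides, against 20 over the 13824 windows of background genes. The GC box GGGCGG, searched on both strands and counted once per window, was in 0 of the 8 windows of 6 sodium channel genes, in 50% of the potassium, 54.5% of the calcium and 61.5% of the background windows. It was in the Kcnip2 window. The TATA box TATAAA was in 1 of the 8 sodium channel windows, at a start of Scn2a, and in 7.07% of background windows. These matches describe letters in the windows and say nothing of binding.

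Long transcripts as a whole were lower in Gpr75-/- mice on chow. Over the 876 background genes with a transcript over 8 kb, the median difference was -0.06 and 68 were lower past the fold, with 13 higher. The 22 channel genes of that length had a median of -0.10, and the 6 sodium alpha subunits, which are all in it, a median of -0.23. On the HFD the median was 0.00 over long background genes and over long channel genes, and -0.04 over the sodium alpha subunits. The part of transcript length in the sodium channel values was not tested.

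Calcium channel genes differed little between the genotypes. Of the 8 alpha1 subunits, which form the pore, 6 were below WT on chow by a fold of no less than 0.931. Cacna1a, the P/Q-type pore of presynaptic terminals, was at 91.5 CPM in WT and 85.2 in Gpr75-/- mice on chow, and at 76.6 and 82.2 on the HFD. Cacna1b, the N-type pore, was at 71.5 and 66.8 CPM on chow and at 60.4 in both genotypes on the HFD. Cacna1c, an L-type pore, was at 53.0 and 49.7 CPM on chow and at 46.6 and 45.2 on the HFD. Cacna1g, a T-type pore that supports burst firing, was at 56.5 and 54.7 CPM on chow and at 45.2 and 48.1 on the HFD. Cacna1e, the R-type pore, was at 76.6 and 71.5 CPM on chow and had the highest calcium channel fold on the HFD, 1.11 (1.07 to 1.15).

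Among the alpha2delta subunits, Cacna2d1, which binds gabapentin, was at 138 and 128 CPM on chow and at 114 in both genotypes on the HFD. Cacna2d2 had nearly the same fold on the 2 diets, 0.930 and 0.932. Cacna2d3 was at 91.5 and 82.2 CPM on chow, the lowest calcium channel fold there at 0.898 (0.867 to 0.931), and at 79.4 in both genotypes on the HFD. Cacna2d4 lay on opposite sides of WT on the 2 diets, at 8.0 and 8.82 CPM on chow and at 6.89 and 5.59 on the HFD, where its fold was 0.811 (0.797 to 0.825) and the only calcium channel value past 1.2-fold. It overlaps the gene Lrtm2. The summed CPM of the 12 genes gave Gpr75-/- to WT ratios of 0.940 (chow) and 1.01 (HFD).

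The 4 HCN channel genes took opposite signs on the 2 diets, all within 1.2-fold. Hcn2 was at 138 CPM in WT and 128 in Gpr75-/- mice on chow, and at 114 and 119 on the HFD. Hcn3 was at 33.4 and 32.5 CPM on chow, and at 31.5 and 34.4 on the HFD. Hcn4, the pacemaker subunit of the heart, was at 11.8 and 11.6 CPM on chow and had the highest HCN fold on the HFD, 1.13 (1.11 to 1.15). For Hcn3 and Hcn4 on chow and for Hcn2 on the HFD, the rounding range reached 1.0.

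Potassium channels are the largest class, and most of their genes stayed within 1.2-fold. The Kv1 to Kv4 families form the delayed rectifier and A-type currents that repolarize the action potential. Kcna1, which damps firing at axons, was at 91.5 CPM in WT and 74.0 in Gpr75-/- mice on chow, a fold of 0.809 (0.781 to 0.838), and was the only one of these 15 genes past the fold there. On the HFD it was at 82.2 and 71.5 CPM, a fold of 0.870 (0.840 to 0.901). Its partner Kcna2 was at 245 and 225 CPM on chow and at 225 and 216 on the HFD. Kcna5, a neighbour of Kcna1 on chromosome 6, was higher in Gpr75-/- mice on both diets, with folds of 1.13 (1.1 to 1.16) and 1.16 (1.13 to 1.19). Kcna6, the other neighbour, was at 119 CPM in both genotypes on chow and at 123 in both on the HFD.

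Kcnc1, a Kv3 channel of fast-spiking neurons, was at 133 and 119 CPM on chow and at 119 and 123 on the HFD. Kcnc4 was at 64.6 and 66.8 CPM on chow and had a fold of 1.15 (1.11 to 1.19) on the HFD. Kcnd2, which carries A-type current in dendrites, had a fold of 0.963 on both diets, with rounding ranges that reached 1.0. Kcnd1 was slightly higher in Gpr75-/- mice on both, with folds of 1.14 (1.12 to 1.16) and 1.09 (1.07 to 1.11).

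Of the 9 auxiliary subunits of these channels, 2 were lower past the fold on chow, beside 3.35% of background genes. Kcnip2, which binds Kv4 channels, was at 29.0 CPM in WT and 23.3 in Gpr75-/- mice on chow, a fold of 0.803 (0.782 to 0.826), and at 27.4 and 23.9 on the HFD, a fold of 0.873 (0.849 to 0.897). Kcnab3, which binds Kv1 channels, was at 26.6 and 21.5 CPM on chow, a fold of 0.807 (0.786 to 0.829), and at 22.7 and 19.4 on the HFD, a fold of 0.856 (0.834 to 0.879). Kcna1, Kcnip2 and Kcnab3 were thus lower in Gpr75-/- mice on both diets, with folds nearer 1 on the HFD. The abundant subunits Kcnab2 and Kcnip4 had folds of 0.961 and 1.04 on chow and equal group values on the HFD.

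Silent Kv subunits form no channel by themselves and change the currents of Kv2 channels. Kcng4 was at 9.18 CPM in WT and 9.0 in Gpr75-/- mice on chow. On the HFD it was at 8.65 and 5.32 CPM, a fold of 0.615 (0.604 to 0.626), the lowest of any channel gene on that diet. Kcng1 was past the fold on both diets, at 5.50 and 4.47 CPM on chow and at 5.23 and 4.34 on the HFD, with folds of 0.813 (0.801 to 0.826) and 0.829 (0.816 to 0.842). Kcng2 had the highest HFD fold among genes with a mean of at least 100, 1.18 (1.15 to 1.2), and a fold of 0.897 (0.880 to 0.913) on chow. Kcnf1 was at 40.0 and 43.8 CPM on chow and at 38.8 and 37.6 on the HFD. Kcns1, the least abundant member, had a fold of 0.755 (0.749 to 0.761) on the HFD and 1.1 (1.09 to 1.11) on chow.

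KCNQ subunits carry the M-current, which holds neurons below threshold. Kcnq3 was at 54.7 and 49.7 CPM on chow and at 45.2 and 41.2 on the HFD, with folds of 0.908 and 0.911. Kcnq5, which overlaps 2 other listed genes, was at 31.5 and 25.9 CPM on chow, a fold of 0.822 (0.799 to 0.845), and at 27.4 and 25.9 on the HFD.

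The EAG family holds slowly gating and ERG-type channels. Kcnh3 had the lowest fold of all 100 genes on chow, at 5.32 CPM in WT and 2.86 in Gpr75-/- mice, 0.537 (0.530 to 0.545), and was at 2.82 and 2.30 on the HFD, a fold of 0.816 (0.807 to 0.826). With Kcng1 it was 1 of 2 channel genes past the fold on both diets, each lower and each with means under 100 normalized counts. Its mean over the 6 chow mice lay 0.23 on the log2 scale above what its 2 group values give, and 0.37% of background genes had such a gap over 0.1. Unequal mice within a group would give one, but single mice were not seen. Kcnh3 also overlaps Mcrs1. Kcnh2, the ERG channel, was at 37.6 and 42.5 CPM on chow, a fold of 1.13 (1.1 to 1.16), and at 38.8 and 40.0 on the HFD. Kcnh5 was past the fold on the HFD alone, at 14.5 and 11.6 CPM, a fold of 0.798 (0.780 to 0.816), beside 0.954 (0.932 to 0.977) on chow. Kcnh7 was at 32.5 and 29.8 CPM on chow and at 30.7 and 29.0 on the HFD.

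Inward rectifiers pass potassium near the resting potential. The G protein-gated subunit Kcnj3 was at 58.4 CPM in both genotypes on chow and at 53.0 in both on the HFD. Kcnj9 was at 85.2 CPM in both genotypes on chow and at 76.6 and 74.0 on the HFD. Kcnj6 was at 16.7 and 15.9 CPM on chow and at 16.7 and 18.4 on the HFD. Thus none of these 3 subunits, through which many peptide and monoamine receptors inhibit neurons, was past 1.2-fold.

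Kcnj11, the pore of the neuronal ATP-sensitive channel, was at 6.76 CPM in both genotypes on chow and at 6.08 and 6.41 on the HFD. Kcnj8, the ATP-sensitive pore of vascular cells, was at 5.15 and 4.40 CPM on chow, a fold of 0.855 (0.842 to 0.869), and at 4.15 and 4.98 on the HFD, a fold of 1.2 (1.18 to 1.22), so it lay on opposite sides of WT on the 2 diets. The glial rectifier Kcnj10 was at 128 and 123 CPM on chow and at 110 and 102 on the HFD, and its partner Kcnj16 at 74.0 and 76.6 CPM on chow and at 82.2 in both genotypes on the HFD. Kcnj4 was lower on chow, at 4.61 and 2.86 CPM, a fold of 0.620 (0.611 to 0.628), with a gap of 0.14 between its mean and its group values. On the HFD it was at 2.72 and 2.33 CPM. Kcnj8 and Kcnj4 both have means under 100 normalized counts.

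Of the channels that open with intracellular calcium or sodium, none was past 1.2-fold. Kcnma1, the large-conductance calcium-activated pore, was at 156 CPM in both genotypes on chow and at 150 and 133 on the HFD, a fold of 0.889 (0.855 to 0.925). The small-conductance channels, which shape the afterhyperpolarization, differed among themselves. Kcnn3 was lower on both diets, with folds of 0.853 (0.831 to 0.876) and 0.902 (0.879 to 0.926). Kcnn2 had folds of 0.890 (0.864 to 0.916) on chow and 1.12 (1.09 to 1.16) on the HFD. Kcnn1 had the highest chow fold of all 100 genes, 1.18 (1.15 to 1.2), and 1.02 (1.0 to 1.04) on the HFD. The large-conductance auxiliary subunit Kcnmb2 had folds of 0.879 (0.862 to 0.895) and 0.849 (0.833 to 0.864).

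Two-pore channels carry background potassium current. Kcnk1 was at 79.4 and 76.6 CPM on chow and at 79.4 in both genotypes on the HFD, and Kcnk2, a channel opened by stretch and lipids, at 41.2 and 40.0 on chow and at 41.2 and 43.8 on the HFD. On chow all 8 genes of the family stayed within 1.2-fold. On the HFD Kcnk12 was lower, at 4.34 and 3.46 CPM, a fold of 0.797 (0.786 to 0.808), and Kcnk6 was higher, at 3.70 and 4.61 CPM, a fold of 1.25 (1.23 to 1.26). Both have means under 100 normalized counts. The remaining genes past the fold were Kcnj14, at 0.764 (0.754 to 0.773), and Kcnh6, at 0.821 (0.810 to 0.833), both lower on chow and both with means under 100.

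Set side by side over the 100 genes, the differences on chow and on the HFD had a Pearson correlation of 0.26 and a Spearman correlation of 0.24. The diets have separate mice in every group, and genes are not independent replicates. Of the 100 genes, 20 were past the fold on at least 1 diet, against 10.3% of the 13309 background genes of both diets. Those lower past the fold on both diets were 2 channel genes and 0.481% of these background genes. By more than 1 rounding step, 18 genes were lower in Gpr75-/- mice on both diets, 7 were higher on both, and 13 took opposite signs, beside 9.05%, 10.2% and 14.1% of the background genes. The 10 sodium channel genes had a median shift of 0.15 from chow to the HFD, with 8 of the 10 differences above their chow value.

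**Figure D4:**
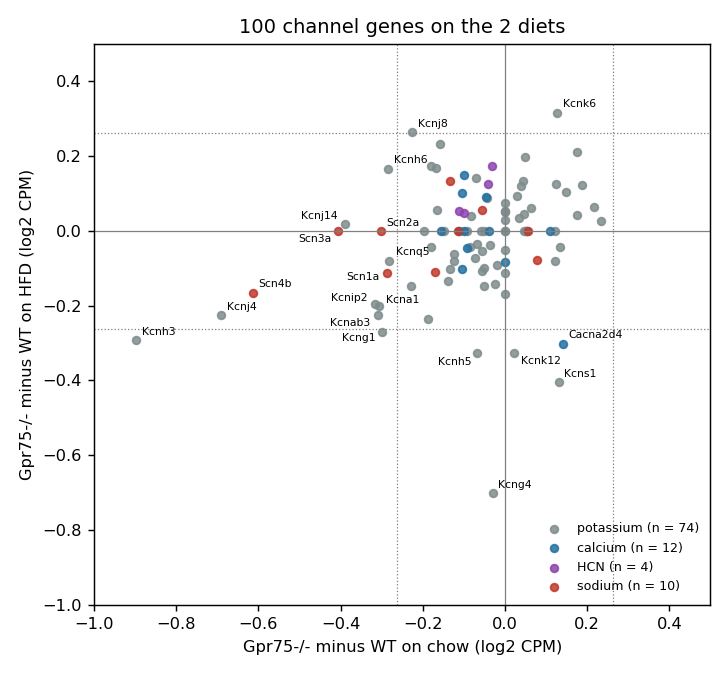
Gpr75-/- minus WT difference (log2 CPM) on chow (horizontal axis) against that on the HFD (vertical axis) for the 100 channel genes, 1 point a gene coloured by class, with dotted lines at 1.2-fold. The genes past the fold on at least 1 diet are named, and only Kcng1 and Kcnh3 lie past it on both.

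Genes linked to these channels were listed too. Not all are partners of the members: the list also holds the leak channel Nalcn with Unc79 and Unc80, and Cacng genes. Of these 34 genes, 33 were in the tables. Their median difference was -0.05 on both diets, with 0 higher and 2 lower past the fold on chow and 1 higher and 2 lower on the HFD, beside the 6.58% and 5.55% of background genes past the fold. On chow the lower pair was Adam22, the Lgi1 receptor found with Kv1 channels, with a fold of 0.816 (0.783 to 0.850), and the calcium channel beta subunit Cacnb4, with 0.829 (0.798 to 0.861). Cacng2 followed at 0.862, and the highest were Cacnb3 at 1.14, Fgf12 at 1.08 and Dpp10 at 1.08. On the HFD the lowest were Cacng7 at 0.817, the sodium leak channel Nalcn at 0.823 (0.792 to 0.856) and Abcc9 at 0.857, and the highest were Cacng8 at 1.21, Abcc8 at 1.08 and Unc79 at 1.06. Abcc8, which pairs with Kcnj11, was at 20.4 CPM in WT and 22.1 in Gpr75-/- mice on the HFD.

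The hypothalamic peptide genes Pmch and Oxt were at 245 and 110 CPM in WT mice on chow. Other cell and region markers differed between the genotypes. The 10 neuron markers had a median of 0.00 on chow and -0.03 on the HFD, and their summed CPM was 6324 in WT and 6081 in Gpr75-/- mice on chow and 5894 and 5815 on the HFD. All 14 oligodendrocyte markers were lower in Gpr75-/- mice on both diets, summing to 12277 and 10490 CPM on chow and to 12987 and 11104 on the HFD. All 6 choroid plexus markers were higher on chow, summing to 344 and 526 CPM, and 5 of the 6 had the gap over 0.1 between mean and group values. All 5 red blood cell markers were higher on chow, at 277 and 443 CPM. On the HFD all 5 red blood cell markers were lower, at 314 and 280 CPM, and 3 of the 5 listed choroid plexus markers were lower, with the list at 369 and 326 CPM. On the HFD, 13 of 14 listed hypothalamic markers were higher, at 793 and 961 CPM, with 9 past the fold, and 4 of 5 thalamic and cortical markers were lower, at 474 and 390 CPM. On chow these sums were 796 and 823, and 580 and 590. The medians of the other lists, for oligodendrocyte precursors, astrocytes, microglia, endothelium, pericytes, ependyma with tanycytes and cerebellum, ran from -0.07 to 0.05 on chow and from -0.19 to 0.18 on the HFD. Cerebellar Gabra6, Cbln3 and Pcp2 were listed only on the HFD, where their deposited WT values were at 0. Their Gpr75-/- values there were 2.28, 2.51 and 1.2 CPM. The other cerebellar markers, Neurod1 and Calb1, had folds of 1.22 and 1.05 on the HFD. Kiss1 was listed on neither diet. The part of these markers in the channel values was not tested. Of the genes left out by the rule, Kcne2 and Kcnj13, known from choroid plexus, were listed on chow alone, where the deposited WT values were at 0, and the deposited values of Kcnk9 and Scn7a gave folds of 1.04 and 0.903 on chow and of 1.0 and 0.944 on the HFD.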

How the data were processed

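Hypothalamus RNA from 12 mice was sequenced. The submitters' processing notes name STAR, featureCounts, StringTie, DESeq2 and GRCm39, with no versions, and each diet was tabled separately. For each gene the authors deposited a signal, the normalized count (count over size factor) averaged across the 6 mice of a diet, and 1 value per genotype on a log2 scale. No source states how that log2 value was made. It was read as the log2 of 1 plus log2 CPM, since log2 of the mean count minus the decoded value was then nearly constant: its median was 4.20 on chow (5th to 95th percentile 4.19 to 4.22 over 9266 genes with a mean of at least 300) and 4.29 on the HFD (4.27 to 4.31 over 9402 genes). A group value lies below the log of the arithmetic mean where mice differ. The deposited log2 fold changes, errors, statistics, p-values and adjusted p-values are the authors' own comparison and were not used.

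Differences are the decoded log2 CPM of Gpr75-/- minus WT. The deposited values are rounded to 2 decimals, which leaves a median of 0.042 either way in a difference. Background genes were protein-coding, with a mean of at least 30 and both group values above 0. No per-mouse columns and none of the authors' errors were used, so no test was made, and the spread between mice is not given here. The diets' levels were not compared. Transcript lengths came from GENCODE M21 by gene identifier, and promoter windows from RefSeq, GRCm38.p6. For 31 of the 100 genes no window was matched.

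Named genes were, among those with a mean of at least 100, the 6 highest and 6 lowest differences on each diet, the 3 highest per kb of each class on chow, those past the fold on both diets, and a set chosen for roles. Other genes past the fold, and the levels of Scn2a and Scn1a, were named after their values were seen. Values of some single members are not reported here. The members and lists were chosen with earlier results of these data known. Python 3.11.15, numpy 2.4.6, pandas 2.3.3 and matplotlib 3.10.9 were used, and the steps were tested on simulated data.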

Additional observations from a re-analysis of the deposited data

How the results depend on the processing

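The group values carry no spread, and the authors' errors and p-values were set aside, so no test was made and no replicate could be left out. No paired analysis was possible because the tables hold 1 value per genotype and diet, and no column for a replicate number. The class medians kept their value within rounding under each of these alternatives (no minimum, a minimum mean of 100, centring, a pseudocount of 10, pore-forming subunits alone), except that the sodium median on chow was -0.23 over pore-forming subunits. Means in place of medians on chow were -0.19 for sodium, -0.05 for calcium, -0.07 for HCN and -0.06 for potassium channel genes, so sodium stayed lowest and calcium came nearest 0. Counts past the fold followed the fold. At 1.1-fold, 26 of the 100 genes were lower and 7 higher on chow (background 12.3% and 11.8%), and 17 lower and 11 higher on the HFD (9.68% and 11.0%). At 1.5-fold, 3 were lower on chow (0.262%), and 1 lower and 0 higher on the HFD (0.246% and 0.134%). With a mean of at least 100, 8 of 84 were lower on chow (1.97%), and 3 of 85 lower and 0 higher on the HFD (1.42% and 1.16%). With the pseudocount, 1 was higher on the HFD. 2 alternatives were chosen after seeing the data. Without genes that overlap another listed gene, the potassium median on chow was 0.00. Leaving out Kcnh3 and Kcnj4, whose means lay over 0.1 above their group values, moved no class median beyond rounding and left 11 genes lower on chow.

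Per kb of the median transcript length, the median levels were 208 over all channel genes on chow and 201 on the HFD, 625 and 595 for sodium, 454 and 432 for HCN, 355 and 342 for calcium, and 164 and 171 for potassium channel genes, so the order of the classes stayed. With a mean of at least 100, the potassium median was 147 on chow and 142 on the HFD, above the medians of HCN (120 and 127) and calcium channel genes (107 and 102).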
